A study of Mus musculus with 30 samples.

Results

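The comparison described here is that of jejunal mucosa taken 20 h after Fgf7 with jejunal mucosa taken 20 h after PBS. The groups compared hold 6 of the 30 arrays of the series, chosen by their labels: 3 of Fgf7 and 3 of PBS. The tests fitted all 30 arrays, so that the spread, the filter on dim probes and the choice of probe draw on the other 24 as well. All 13159 genes with measurable signal, of 19057 genes on the array, entered it. Fgf7, or keratinocyte growth factor, was given once at 1 mg/kg, and phosphate-buffered saline (PBS) served as the control. The mice of both groups were non-fasted C57BL/6 males, 11 to 12 weeks old, and the mucosa was scraped from a 2 cm piece of jejunum. The series also holds mucosa taken 1 h (n = 3 per group) and 5 h (n = 4 per group) after Fgf7 or PBS, and mucosa taken after Ex-4 (exendin-4, a peptide that activates the GLP-1 receptor) at 10 nmol/kg. A scraping mixes epithelium with the connective tissue, vessels and immune cells beneath it. All values are log2 signals of Illumina beadchips, 1 probe per gene, and differences are Fgf7 minus PBS.

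Fgf7 is made by connective tissue cells and acts on the epithelium through an epithelial isoform of Fgfr2, a receptor tyrosine kinase. The receptor activates the MAP kinase ERK, which switches on transcription factors of the ETS family and the feedback inhibitors Spry and Dusp. In the small intestine, crypt stem cells give rise to absorptive enterocytes, to mucus-secreting goblet cells and to Paneth cells, which store antimicrobial peptides at the crypt base. In rats, repeated Fgf7 is known to increase epithelial proliferation and mucus-secreting cells.

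Only 6 genes passed 20 h after Fgf7 with a limma adjusted p under 0.05, and all 6 rose: Mboat1, Anxa3, S100a6, Pate4, Bcas1 and Etv4. They made up 0.0456% of the genes tested, and 0 genes fell. Without adjustment, 343 genes (2.61%) were higher and 186 genes (1.41%) lower at p under 0.05. The median gene differed by 0.01 on the log2 scale, and the middle of the distribution, the 10th to the 90th percentile, ran between -0.11 and 0.12. Correlations between the 6 arrays ranged between 0.992 and 0.995 within groups and between 0.990 and 0.996 between groups, so the arrays did not separate by treatment as a whole.

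For orientation, the 250 bases that precede the start of the 2 genes of this set found in a RefSeq promoter table (GRCm38.p6) are shown; Anxa3, Pate4, Bcas1 and Etv4 are named only. Capitals mark the ETS core CCGGAA, the sequence at the heart of sites for ETS factors such as Etv4, on either strand. The window of Mboat1 held 1 match on the reverse strand, and that of S100a6 held 0. An ETS core was present in 12% of 32851 windows of this length, and the AP-1 site TGANTCA, searched on both strands as well, was present in 6.75% and in neither gene.
Mboat1 (chr13:30136240-30136489, plus strand): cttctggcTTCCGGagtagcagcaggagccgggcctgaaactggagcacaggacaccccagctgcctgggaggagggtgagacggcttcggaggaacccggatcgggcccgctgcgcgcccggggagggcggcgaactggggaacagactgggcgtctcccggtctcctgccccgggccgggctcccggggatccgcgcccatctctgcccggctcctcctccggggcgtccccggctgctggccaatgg
S100a6 (chr3:90612644-90612893, plus strand): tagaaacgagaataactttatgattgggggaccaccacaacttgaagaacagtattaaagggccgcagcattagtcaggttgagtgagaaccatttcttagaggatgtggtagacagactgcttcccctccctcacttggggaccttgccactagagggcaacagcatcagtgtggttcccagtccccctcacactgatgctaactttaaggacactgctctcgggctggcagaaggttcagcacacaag

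Mboat1 encodes a membrane-bound enzyme that transfers acyl chains to lysophospholipids. Its signal was 8.22, 8.56 and 8.28 on the 3 Fgf7 arrays, against 7.37, 7.32 and 7.47 on the 3 PBS arrays. The lowest Fgf7 array lay well above the highest PBS array. The means differed by 0.96 ± 0.09 on the log2 scale (SE, n = 3 per group), with a limma adjusted p of 2.34e-06. As the PBS arrays lay only slightly above the dim level of 7.18, below which a probe cannot be told from background, the fold of 1.95 on the deposited scale became 5.24 after subtraction of the background signal.

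Anxa3, which encodes the calcium-dependent phospholipid-binding protein annexin A3, had 9.59, 9.55 and 9.53 on the Fgf7 arrays, against 8.86, 8.42 and 8.37 on the PBS arrays. The Fgf7 arrays lay close together and the PBS arrays were spread over a wider range beneath them. The log2 difference was 1.01 ± 0.13 (SE, n = 3 per group, limma adjusted p = 0.000356), the largest of the 6, and a second probe of the gene gave 0.92. S100a6 encodes a small calcium-binding protein, which can bind annexins. Its signal was 11.49, 11.39 and 11.57 on the Fgf7 arrays, against 10.77, 10.51 and 10.51 on the PBS arrays. All Fgf7 arrays were above all PBS arrays, and the means differed by 0.89 ± 0.14 on the log2 scale (SE, n = 3 per group, limma adjusted p = 0.00227).

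Bcas1, one of the listed goblet cell genes, had 11.27, 11.28 and 11.21 on the Fgf7 arrays, against 10.85, 10.72 and 10.70 on the PBS arrays. The groups did not overlap, and the log2 difference was 0.50 ± 0.09 (SE, n = 3 per group, limma adjusted p = 0.0139). Leaving out 1 array at a time, Bcas1 passed in 2 of 6 fits, with adjusted p values up to 0.133 and log2 differences of 0.47 to 0.54; the call was lost without Fgf7 replicate 1, Fgf7 replicate 2, PBS replicate 2 or PBS replicate 3.

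The remaining pair of genes was dim. Pate4 encodes a small secreted protein best known from the male reproductive tract of the mouse. It had 7.54, 7.76 and 7.49 on the Fgf7 arrays, against 7.07, 7.12 and 7.003 on the PBS arrays. All PBS arrays were at or below the dim level, so the change is given as at least 1.33-fold higher after Fgf7. The fitted log2 difference was 0.53 ± 0.07 (SE, n = 3 per group), with a limma adjusted p of 0.000356. In the whole series, Pate4 was above the dim level on only 7 arrays, those taken 5 and 20 h after Fgf7. The other 23 reached at most 7.17. The filter on dim probes thus kept Pate4 for its signal after Fgf7, and Pate4 also passed without that filter. Etv4, an ETS transcription factor and a known target of FGF and ERK signalling, had 7.49, 7.97 and 7.48 on the Fgf7 arrays, against 7.14, 7.03 and 7.25 on the PBS arrays. Fgf7 replicate 2 stood above the other 2, and 1 of 3 PBS arrays was above the dim level. In the whole series, Etv4 was above that level on 10 arrays, which included every Fgf7 array of 5 and 20 h. Etv4 also passed without the filter on dim probes. The log2 difference was 0.50 ± 0.09 (SE, n = 3 per group, limma adjusted p = 0.0161). Etv4 passed in 3 of the 6 fits that left out 1 array, with log2 differences of 0.34 to 0.59; the call was lost without Fgf7 replicate 2, PBS replicate 1 or PBS replicate 2 (adjusted p up to 0.225), and also with same-numbered arrays as pairs (adjusted p = 0.0863).

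**Figure D1:**
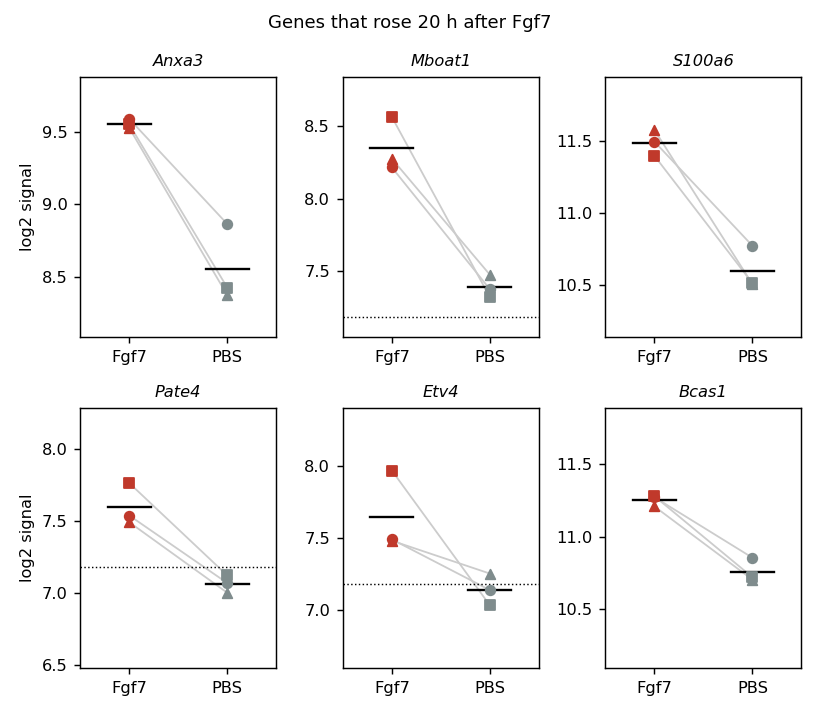
Log2 signal (vertical axes) of the 6 genes that rose, on the 3 Fgf7 arrays (left, red) and the 3 PBS arrays (right, grey) at 20 h. Circles, squares and triangles are replicates 1, 2 and 3, grey lines join arrays of the same number, horizontal bars are group means and the dotted line is the dim level of 7.18. In every panel the 3 Fgf7 points lie above the 3 PBS points; the smallest gap between the groups is that of Etv4.

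Of these genes, 4 had also risen 5 h after Fgf7, on other arrays, which set no mean at 20 h but share the estimate of the spread. At 5 h, the log2 difference was 0.69 ± 0.08 for Mboat1 (limma adjusted p = 9.76e-05), 0.75 ± 0.12 for Anxa3 (adjusted p = 0.00255), 0.56 ± 0.08 for Etv4 (adjusted p = 0.00101) and 0.45 ± 0.08 for Bcas1 (adjusted p = 0.00462; SE, n = 4 per group). S100a6 and Pate4 did not pass at 5 h, with log2 differences of 0.43 ± 0.12 (adjusted p = 0.19) and 0.18 ± 0.06 (adjusted p = 0.384). At 1 h, the log2 differences of the 6 genes lay between -0.13 for Anxa3 and 0.14 for S100a6, and none passed (limma adjusted p 0.797 or higher).

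The change of the Fgf7 effect between times was tested directly. Against 1 h, the effect at 20 h was greater by 0.88 ± 0.13 for Mboat1 (limma adjusted p = 0.00797) and by 1.14 ± 0.19 for Anxa3 (adjusted p = 0.0175), and those were the 2 genes of 13159 (0.0152%) in that direction; in the other, Egr1 alone passed (0.0076%). Without Fgf7 replicate 2 or PBS replicate 3 of 20 h, or Fgf7 replicate 3, PBS replicate 1 or PBS replicate 2 of 1 h, the call of Mboat1 was the only one left, and without the 4 arrays of 1 and 5 h highest in smooth muscle genes it was that of Anxa3. After subtraction of background, Anxa3, Etv4 and Pate4 passed, and Mboat1 and Egr1 did not; with an intensity trend and robust variances, Anxa3, Mboat1 and Pate4 passed, and Egr1 did not. Against 5 h, 0 of 13159 genes passed, with 484 at an unadjusted p under 0.05. S100a6 and Pate4 had larger values at 20 h than at 5 h, by 0.46 ± 0.18 and 0.35 ± 0.10 on the log2 scale, but neither difference passed (adjusted p = 1 for each). On the 23 arrays of the series that were neither 5 h nor 20 h after Fgf7, the signal of Mboat1 ran between 7.25 and 7.64 and that of Anxa3 between 8.37 and 8.86, below every Fgf7 array at 20 h. The same held for S100a6, with 10.16 to 11.03 on those 23 arrays.

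**Figure D2:**
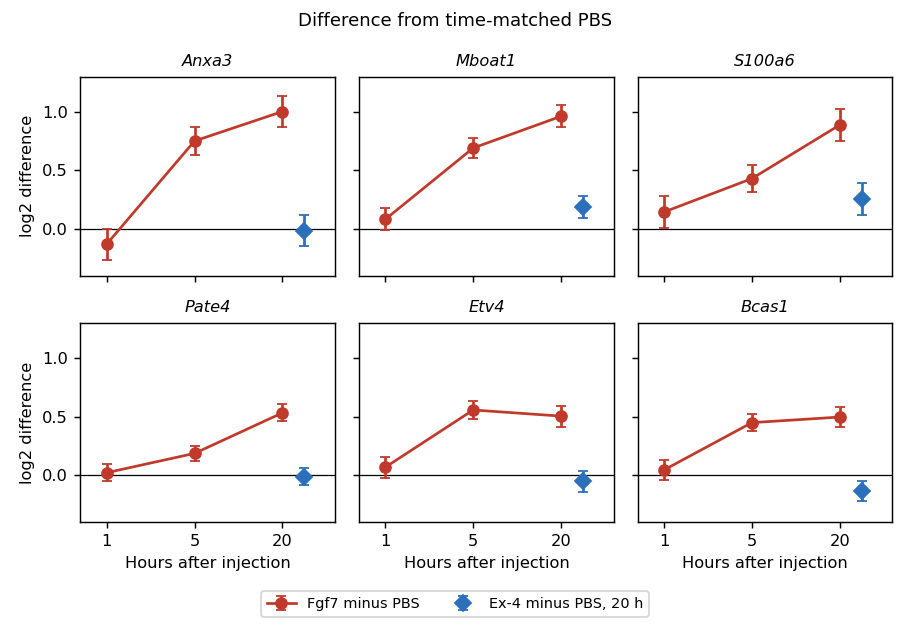
Log2 difference from the PBS group of the same time (vertical axes, bars are SE) for the 6 genes, 1, 5 and 20 h after Fgf7 (red circles) and 20 h after Ex-4 (blue diamonds). At 1 h all values are within 0.14 of 0; all but Etv4 are highest at 20 h, and the Ex-4 values lie between -0.14 and 0.25.

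The 28 genes that passed 5 h after Fgf7 were followed to 20 h. The background at 5 h was 0.19% of genes higher (25 genes) and 0.0228% lower (3 genes). Of the 25, 20 were above 0 at 20 h, against 54.3% of all genes tested, and 4 passed (Anxa3, Mboat1, Etv4 and Bcas1). These 4 are 16% of the genes that rose at 5 h and 4 of the 6 that rose at 20 h. Their Fgf7 and PBS arrays at 20 h did not overlap in 7 of the 25, higher after Fgf7, against 5.05% of all genes. The median log2 difference of the 25 was 0.53 at 5 h and 0.14 at 20 h, and 22 of them had the smaller value at 20 h. Since they were chosen for being high at 5 h, a smaller value at another time follows in part from the choice, and in the direct test between 5 h and 20 h none of them passed (limma adjusted p = 1 for each).

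Values at 20 h varied among these genes; those named next were picked after their values were seen. Srm, which encodes spermidine synthase, differed by 0.82 at 5 h and by 0.14 ± 0.18 at 20 h. Ccnd2, the cell cycle regulator cyclin D2, differed by 0.53 at 5 h and by -0.23 ± 0.13 at 20 h. Ung, a uracil DNA glycosylase, and Rrp1b, a nucleolar protein, were at -0.03 ± 0.14 and -0.04 ± 0.12 at 20 h. Asns (asparagine synthetase) differed by 0.72 at 5 h and by 0.36 ± 0.17 at 20 h. Nup210 (a nuclear pore protein) differed by 0.53 at 5 h and by 0.38 ± 0.13 at 20 h. None of these 6 genes passed at 20 h (limma adjusted p = 0.999 for all 6, SE with n = 3 per group). Of the 3 genes that fell at 5 h, the chemokine Ccl6 was at -0.53 ± 0.15 at 20 h with arrays that did not overlap (adjusted p = 0.825). The listed genes of ribosome biogenesis and MYC targets, of which 20 of 20 were above 0 at 5 h (50.9% of all genes) with a median of 0.24, were above 0 for 14 of 20 at 20 h with a median of 0.05.

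**Figure D3:**
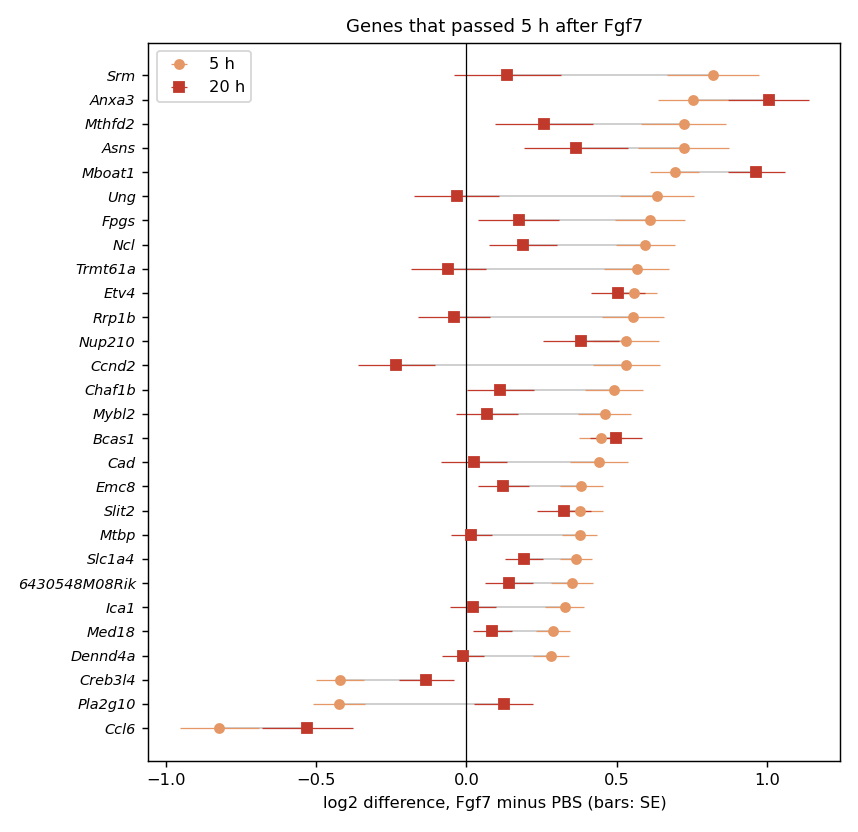
Log2 difference between Fgf7 and PBS (horizontal axis, bars are SE) of the 28 genes that passed at 5 h, at 5 h (orange circles) and at 20 h (red squares). For most genes the 20 h value lies nearer 0 than the 5 h value; of the 25 genes that rose at 5 h, Anxa3, Mboat1 and Bcas1 have the higher value at 20 h.

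Of the listed genes of the FGF pathway, Etv4 was the only one that passed. Of 14 listed ligands, receptors and adaptors, 0 passed, and their median difference was -0.00 against 0.01 for all genes. Fgfr2, the receptor of Fgf7, had 9.06, 9.20 and 9.18 on the Fgf7 arrays, against 9.52, 9.75 and 9.43 on the PBS arrays. The groups did not overlap, but the log2 difference of -0.42 ± 0.17 did not pass (limma adjusted p = 0.999). The Fgf7 gene itself was near the dim level, at 7.17, 7.16 and 7.18 after Fgf7 and 7.26, 7.14 and 7.12 after PBS. Of 17 genes of ERK feedback and ETS targets, 1 passed (Etv4), 7 were above 0 and the median was -0.04. Dusp6 and Spry4, feedback inhibitors of ERK signalling, were at 0.02 and -0.03, and Dusp5 was at 0.26 ± 0.12 (adjusted p = 0.999). Phlda1, another gene of this list, was at -0.44 ± 0.20 with arrays that did not overlap. Egr1, an immediate-early gene that was the 1 gene to pass at 1 h (0.0076% of genes, 1.99 higher on the log2 scale, limma adjusted p = 0.000102), was at 0.05 ± 0.24 at 20 h.

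Goblet cell genes were mixed. Of 19 tested, 12 were above 0, 1 passed (Bcas1, above) and the median was 0.05. The arrays did not overlap in 4 genes that were higher, against 5.05% of all genes, and in 2 that were lower after Fgf7, against 4.29%. Muc2, the main secreted mucin of the intestine, had 14.84, 14.79 and 14.82 on the Fgf7 arrays, against 14.65, 14.28 and 14.39 on the PBS arrays. The log2 difference of 0.38 ± 0.08 missed the threshold (limma adjusted p = 0.0756) and passed with same-numbered arrays as pairs in the fit of all arrays (adjusted p = 0.0492) but not in the paired fit of the 6 arrays (adjusted p = 0.107). It passed under 2 of 21 alternatives, while the 3 probes of Muc2 gave 0.00 to 0.38. Slc12a8, a membrane transporter, was at 0.35 ± 0.09 (adjusted p = 0.501), and Spdef, a transcription factor of goblet cell maturation, at 0.32 ± 0.10 (adjusted p = 0.983), both without overlap. Agr2, an endoplasmic reticulum protein needed for mucin production, was at 0.55 ± 0.26 with overlapping arrays. The other secreted goblet products were nearer 0, with Tff3 at 0.06, Fcgbp at 0.01 and Zg16 at 0.01. At the other end stood the chemokine Ccl9 at -0.67 ± 0.16 (adjusted p = 0.343) and the sialyltransferase St6gal1 at -0.39 ± 0.17 (adjusted p = 0.999).

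Paneth cell genes lay lower after Fgf7, without any that passed. Of 15 tested, 13 were below 0, against 45.7% of all genes, the median was -0.38, and the arrays did not overlap in 6, against 4.29% of all genes in this direction. Clps, which encodes colipase, had 11.54, 12.02 and 11.62 on the Fgf7 arrays, against 12.47, 12.78 and 12.23 on the PBS arrays (log2 difference -0.77 ± 0.24, limma adjusted p = 0.999). Pla2g2a, a gene of the phospholipase A2 family, had 8.17, 8.68 and 8.18 on the Fgf7 arrays, against 8.95, 9.30 and 9.01 on the PBS arrays (-0.74 ± 0.27, limma adjusted p = 0.999). Nupr1, a nuclear stress protein on this list and on that of the amino acid response, had 8.42, 8.68 and 8.75 on the Fgf7 arrays, against 9.27, 9.58 and 9.34 on the PBS arrays (-0.78 ± 0.18, adjusted p = 0.171). The alpha-defensin Defa26 was at -0.67 ± 0.37, and Lyz1, the Paneth cell lysozyme and one of the brightest genes of the tissue, at -0.24 ± 0.17. Genes of the alpha-defensin family are near-identical, so their probes may not tell them apart. At 5 h the median of the same 15 genes was -0.03, with 7 above 0. In mucosa, fewer cells of a type and less RNA per cell cannot be told apart.

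**Figure D4:**
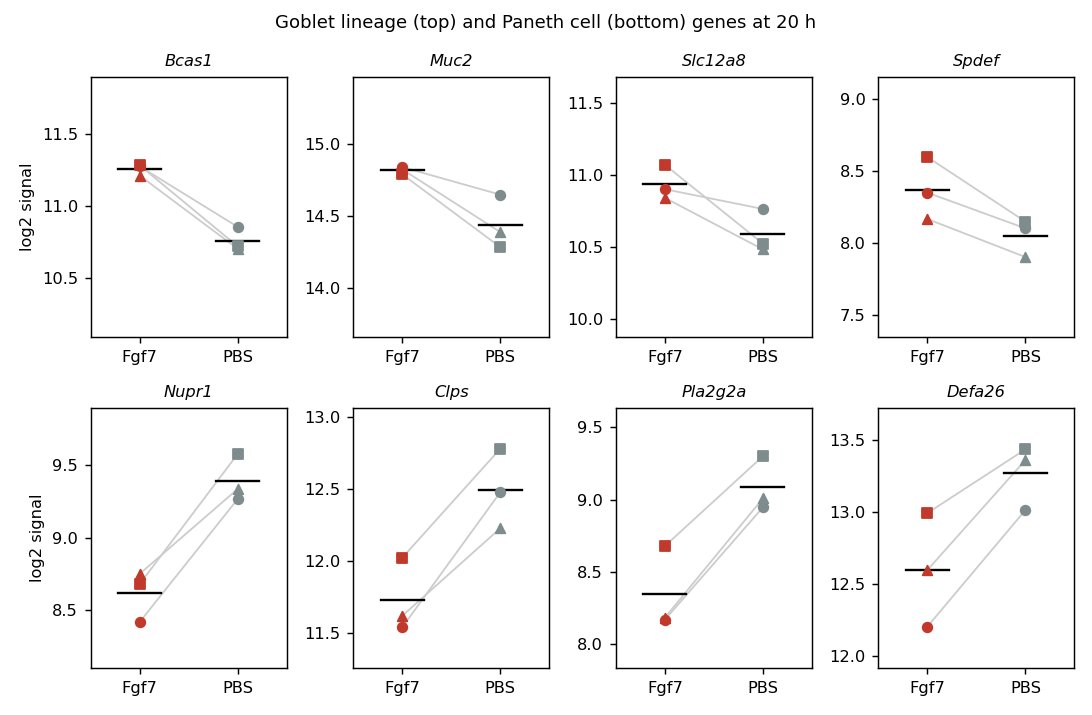
Log2 signal (vertical axes) of 4 genes of the goblet lineage (top) and 4 Paneth cell genes (bottom) on the 3 Fgf7 arrays (left, red) and the 3 PBS arrays (right, grey) at 20 h; circles, squares and triangles are replicates 1, 2 and 3, grey lines join the same number and bars are means. All 3 lines slope down to PBS in the top row and up to PBS in the bottom row, and Bcas1 is the only gene of the 8 that passed. The top row shows only genes that were higher. Of the 19 goblet cell genes tested, 7 were below 0, and 2 were lower without overlap. The bottom row shows only genes that were lower. Of the 15 Paneth cell genes tested, 2 were above 0, and 6 were lower without overlap. Nupr1 is also on the list of the amino acid response.

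Several lists of the tissue beneath the epithelium lay mostly below 0. Of 17 fibroblast and matrix genes, 16 were below 0 (median -0.10) and 7 did not overlap; of 14 endothelial genes, 13 were below 0 (median -0.16) and 7 did not overlap; of 14 macrophage and dendritic cell genes, 13 were below 0 (median -0.16) and 2 did not overlap. Of 15 smooth muscle genes, 11 were below 0 (median -0.13) and 6 did not overlap. Other such lists did not lie below 0: of 9 genes of enteric neurons and glia, 5 were above 0 (median 0.01), and of 7 adipocyte genes, 5 were above 0 (median 0.05), with 0 without overlap in either list. None of these genes passed, against a background of 45.7% below 0 and 4.29% without overlap. Acta2, the smooth muscle actin, had 8.08, 8.26 and 8.16 on the Fgf7 arrays, against 9.69, 9.72 and 9.24 on the PBS arrays, a difference of -1.38 ± 0.96 (limma adjusted p = 0.999). Its 4 measurable probes gave -1.38 to -0.14, and its SE pools the spread over all 9 groups. Plvap, a protein of fenestrated capillaries, was at -0.58 ± 0.33, and Col6a1, a collagen chain, at -0.75 ± 0.34. The mean of the 15 smooth muscle genes, as the log2 deviation from each gene's mean over all 30 arrays, was -0.46, -0.38 and -0.44 on the Fgf7 arrays, against -0.06, -0.20 and -0.32 on the PBS arrays. The 4 arrays of the series with the highest values of this mean, 0.84 to 1.94, were all taken at 1 or 5 h. The Paneth cell mean was -0.50, -0.22 and -0.21 on the Fgf7 arrays, against -0.11, 0.25 and 0.15 on the PBS arrays, so that both means were lower on every Fgf7 array; the part of the one in the other was not tested.

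Cell cycle genes lay slightly higher. All 16 mitotic genes tested were above 0, with a median of 0.19 and values between 0.08 for Kif23 and 0.45 for Prc1, and 0 passed; in 1 of the 16 (Kif11, a spindle motor) the arrays did not overlap, against 5.05% of all genes. Prc1, which bundles microtubules in dividing cells, had 9.96, 10.41 and 10.27 on the Fgf7 arrays, against 10.05, 9.77 and 9.45 on the PBS arrays. Fgf7 replicate 1 lay below PBS replicate 1, and the log2 difference of 0.45 ± 0.16 had a limma adjusted p of 0.999. The mean of the mitotic genes was -0.05, 0.33 and 0.16 on the Fgf7 arrays, against 0.05, -0.05 and -0.19 on the PBS arrays, so the groups overlapped. Of 29 genes of DNA replication, 22 were above 0, against 54.3% of all genes, with a median of 0.10 at 20 h and 0.24 at 5 h. Their mean was -0.09, 0.18 and 0.07 on the Fgf7 arrays, against 0.05, -0.08 and -0.10 on the PBS arrays, so the groups overlapped here too. Crypt stem cell and Wnt target genes were above 0 for 4 of 15 (median -0.05); Olfm4, a stem cell marker, was at -0.59 ± 0.40.

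**Figure D5:**
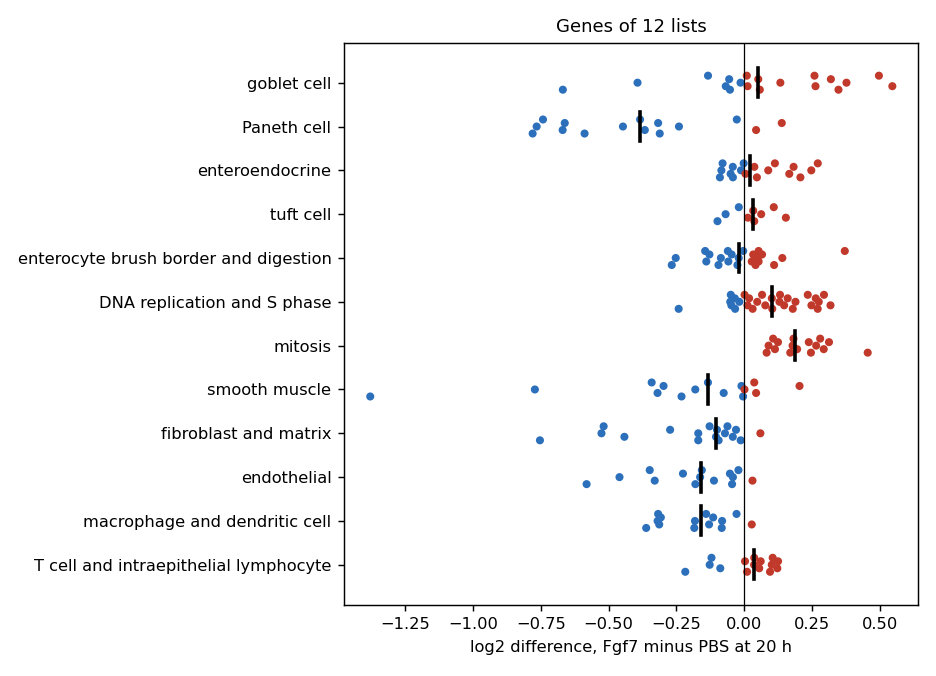
Log2 difference between Fgf7 and PBS at 20 h (horizontal axis) of each tested gene of 12 lists; each point is a gene, red above 0 and blue below 0, and black bars are medians. Mitotic genes lie above 0 (median 0.19), Paneth cell genes mostly below 0 (median -0.38), and fibroblast, endothelial and macrophage genes mostly below 0 (medians -0.10, -0.16 and -0.16).

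Absorptive and metabolic genes differed little. Of 23 brush border and digestion genes, 10 were above 0 (median -0.02) and 0 passed, with values between -0.27 for Enpep, an aminopeptidase, and 0.37 for Tmprss15, the enteropeptidase. The 24 genes of lipid absorption had a median of -0.03, the 33 of xenobiotic metabolism -0.08 and the 13 of sugar transport and fructose metabolism -0.08, with 12 of the 13 below 0 and 0 without overlap. Enteroendocrine genes had a median of 0.02 over 18 genes and tuft cell genes 0.03 over 9. Of 26 interferon-induced genes, 19 were below 0 (median -0.12), against 45.7% of all genes, and 6 did not overlap in this direction, against 4.29%, led by the guanylate-binding protein Gbp2 at -0.48 ± 0.18 (limma adjusted p = 0.999). The T cell list, by contrast in sign, had 11 of 15 genes above 0 (median 0.04).

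Some genes outside these groups had large differences that did not pass in the fit of all arrays without pairs. Serpina1b and Serpina1d, near-identical genes for alpha-1 antitrypsin whose probes may not tell them apart, were at 0.65 ± 0.15 each (limma adjusted p = 0.171), and passed with same-numbered arrays as pairs (adjusted p = 0.00694 for each). Serpina1b had 9.36, 9.26 and 8.96 on the Fgf7 arrays, against 8.62, 8.63 and 8.38 on the PBS arrays, and its 3 probes gave 0.65 to 0.85. Mif, a cytokine, and Fkbp11, an endoplasmic reticulum folding enzyme, were at 0.63 ± 0.16 and 0.62 ± 0.15 (adjusted p = 0.382 and 0.365). Amy2a5, a pancreatic amylase, had 8.80, 8.29 and 8.34 on the Fgf7 arrays, against 7.45, 7.50 and 7.47 on the PBS arrays, but its other measurable probe differed by only 0.08. The pancreatic markers Cela2a and Cpa1 were at 0.31 ± 0.11 and 0.11 ± 0.07, near the dim level (adjusted p = 0.999 for each). Of the 9 listed pancreatic acinar genes tested, 6 were above 0 and 3 below 0 (median 0.10), the lowest being Pnliprp1 at -0.11. The arrays did not overlap in 4 that were higher, against 5.05% of all genes, and 0 of the 9 passed. The part of pancreatic tissue in these values was not tested.

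Deviations of same-numbered Fgf7 and PBS arrays from their group means correlated at 0.215 to 0.612 over genes, against -0.418 to 0.284 for other pairs. Replicates 1 and 2 correlated about as much across numbers (0.192 and 0.284) as within them (0.215 and 0.218). Only replicate 3 (0.612) was set apart, so pairing 1 with 1 and 2 with 2 rests on the array number alone. With the number as a block in the fit of all arrays, 8 genes passed: the 6 less Etv4, with Muc2, Serpina1b and Serpina1d added. A fit of the 6 arrays alone with the same block, chosen after seeing the data, called 65 genes, 14 higher (0.106%) and 51 lower (0.388%), on 2 residual degrees of freedom. Leaving out 1 pair of it gave 38 to 127 genes, and 29 of the 65 passed in each of the 3 fits without a pair. The lower genes included 7 of the 15 Paneth cell genes, namely Nupr1, Clps, Pla2g2a, Defa26, Defa21, Ang4 and Habp2. They also included 2 of 14 endothelial genes, Plvap and Flt1, 2 of 17 fibroblast genes, Col6a1 and Pdgfra, and 2 of 15 smooth muscle genes, Acta2 and Actg2. Of the genes named here, Habp2 and Pdgfra passed in 0 of the 3 fits without a pair, as did 6 of the 65 in all, and Flt1 passed in 1. Clps differed by -0.93, -0.76 and -0.61 in the 3 pairs, and Acta2 by -1.61, -1.46 and -1.07. The higher genes included Anxa3, Mboat1, S100a6, Pate4 and Bcas1 as well as Agr2, with differences of 0.54, 0.58 and 0.52 in the 3 pairs. Other genes described above were among the 65 as well. Amy2a5 (limma adjusted p = 0.00185), Ccl9 (adjusted p = 0.00185) and Olfm4 (adjusted p = 0.0067) passed in all 3 fits without a pair. Fkbp11 (adjusted p = 0.0247), Mif (adjusted p = 0.043) and Gbp2 (adjusted p = 0.0475) passed in 1 of them, and Phlda1 (adjusted p = 0.0343) in 0. In the fit of the 6 arrays without the block, 3 genes passed, Mboat1 and S100a6 higher and Acta2 lower.

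Ex-4 at 20 h shares the PBS arrays with this comparison, so the agents are set side by side and compared directly. After Ex-4, 132 genes (1%) rose and 170 genes (1.29%) fell. Of these 302 genes, 0 passed after Fgf7. The 132 had medians of 0.08 after Fgf7 and 0.42 after Ex-4, and the 170 had medians of -0.07 after Fgf7 and -0.57 after Ex-4. As the 302 were chosen for their values after Ex-4, smaller values after Fgf7 follow in part from the choice. In the direct contrast of the agents, 62 of the 132 and 100 of the 170 passed, and the rest did not. Set against each other, 147 genes (1.12%) were higher and 84 genes (0.638%) lower after Fgf7 than after Ex-4 by limma. Without Ex-4 replicate 1 these counts were 103 and 34, without Ex-4 replicate 3 they were 115 and 110, and without Fgf7 replicate 1 they were 93 and 46. All 6 genes that rose after Fgf7 were among the 147, with log2 differences of 0.55 to 1.02 (adjusted p up to 0.00904), on the same Fgf7 arrays that chose them. Muc2 and Slc12a8 were among them too, at 0.46 ± 0.08 (adjusted p = 0.000621) and 0.57 ± 0.09 (adjusted p = 0.000352), as were Serpina1b at 1.03 and Serpina1d at 0.93.

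Some single genes differed widely between the agents. Saa1, serum amyloid A, differed from PBS by -0.00 after Fgf7 and by 3.02 after Ex-4, and Lcn2, an iron-binding defence protein, by -0.12 after Fgf7 and by 2.26 after Ex-4. Dbp, a clock output gene, differed by 0.22 after Fgf7 and by -2.12 after Ex-4, a direct difference of 2.34 (limma adjusted p = 1.21e-06). The xenobiotic metabolism list had a median of -0.08 after Fgf7 and -0.80 after Ex-4, the antimicrobial list 0.01 after Fgf7 and 0.56 after Ex-4, and the circadian clock list -0.02 after Fgf7 and -0.27 after Ex-4. Cell cycle lists were alike after both agents, against the same PBS arrays. The mitotic genes had a median of 0.19 after Fgf7 and 0.21 after Ex-4, and those of DNA replication 0.10 and 0.11.

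The tissue was checked on its defining markers. Of the 6 enterocyte markers, 5 were above the dim level on all 6 arrays; Fabp2, at 6.84 to 6.99, was above it on none. All goblet, Paneth and enteroendocrine markers were above it on the 6 arrays, while of the 2 markers of ileum Slc10a2 was on none and Fabp6, at 7.08 to 7.45, on 3 of them. The tuft cell marker Pou2f3 and the T cell marker Cd8a were also below it on all 6, and Cd79a, a B cell marker, was not analysed here.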

How the data were processed

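The authors deposited log2 signals per probe. Their normalisation is not stated in the sources used here; the largest SD of a value at the same rank over the 30 arrays was 0.00218. Per the labels' protocols, total RNA was isolated with Trizol, and cRNA carrying biotin was made with the TotalPrep-96 amplification kit of Illumina. The 60 columns of non-normalized values carry headings that match no sample and are not used here, so a filter on deposited signal replaced the planned filter on detection p-values. Replicates are separate samples by their labels; p-values reflect only the spread among them, which may be technical, and 3 arrays per group limit the precision.

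Of 45281 probes, 34885 had 1 gene symbol, 18 several and 10378 none; 34807 matched RefSeq (GRCm38.p6) by gene ID. Probes above the dim level of 7.18 (mode 7.02, SD below it 0.0713, share of background above it 0.01) on at least 3 of 30 arrays were kept, and the probe with the highest mean stood for its gene. limma fitted a mean for each of the 9 groups (21 residual and 4.61 prior degrees of freedom). A gene passed with a Benjamini-Hochberg adjusted p under 0.05 over 13159 genes. Folds are on the deposited scale and understate changes of dim genes; a group without an array above the dim level gives a bound against that level.

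The comparison, the 48 gene lists and the tests were chosen with earlier results of these data known. Named genes are those that passed, up to 15 per direction by size among genes whose arrays do not overlap, the 5 smallest p per direction, up to 4 per list by p, the Fgf receptors, Egr1, genes that passed at 1 or 5 h, and the leading genes of the other contrasts; other members of a list, Id4 and the genes of the paired fit were named after their values were seen. Same-numbered arrays deviated together in all 3 pairs (correlations 0.215, 0.218 and 0.612), which was the reason for running fits with pairs. Fgf7 replicate 2 with PBS replicate 1 (0.284) and Fgf7 replicate 1 with PBS replicate 2 (0.192) correlated about as much. The data thus set only replicate 3 apart, and the labels give only the number. The code was tested on simulated data. Fits used limma 3.58.1 in R 4.3.3; figures and motif searches used matplotlib 3.10.9 and pandas 2.3.3 in Python 3.11.15.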

Additional observations from a re-analysis of the deposited data

Results flagged for a closer look

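Anxa3, Mboat1 and Egr1 drew attention because their difference between Fgf7 and PBS was not the same at 20 h and at 1 h, by the limma test of that difference. For Anxa3 it was larger at 20 h by 1.14 ± 0.19 on the log2 scale (SE, adjusted p = 0.0175), and for Mboat1 by 0.88 ± 0.13 (adjusted p = 0.00797). For Egr1 it was smaller, at -1.94 ± 0.33 (adjusted p = 0.0188), with a log2 difference of 0.05 at 20 h and 1.99 at 1 h. These 3 genes were all that passed of 13159. Mboat1 alone was left without Fgf7 replicate 2 or PBS replicate 3 of 20 h, and without Fgf7 replicate 3, PBS replicate 1 or PBS replicate 2 of 1 h; Anxa3 alone was left when the 4 arrays highest in smooth muscle genes were dropped. After subtraction of background the 3 genes were Anxa3, Etv4 and Pate4. For the 6 genes that rose at 20 h, the groups of 4 arrays at 5 h, 18 sets of values in all, were checked for outliers. The rule was a Dixon ratio, the gap of an array to its nearest neighbour over the whole range, and it flagged no array. With 4 arrays it flags only extreme gaps, and the groups at 20 h were not tested.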

How the results depend on the processing

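Mboat1 and S100a6 passed under all 21 alternatives run, Anxa3 under 20 of 21 and Pate4 under 18 of 20; the exceptions were fits of the 6 arrays alone and, for Pate4, of the 9 arrays at 20 h. Bcas1 passed under 16 of 21 and Etv4 under 11 of 20. Pate4 and Etv4 were not tested in 1 alternative, which kept only probes above the dim level on at least 15 arrays. In that alternative 4 genes passed, Anxa3, Bcas1, Mboat1 and S100a6, and the same 4 passed in the fit of the 9 arrays at 20 h. The 6 genes became 3 in a fit of the 6 arrays alone, 10 after subtraction of background, and 65 in the fit of the 6 arrays with the replicate block, added after seeing the data; without replicate 1, 2 or 3 that paired fit gave 127, 40 or 38. The count was 8 with the replicate block and all arrays, and 4 to 7 with 1 array left out. For the change between 1 h and 20 h, the 3 genes became 5 with the replicate block and 1 when the 4 arrays highest in smooth muscle genes were dropped, and 1 to 5 with 1 array left out, with 5 without Fgf7 replicate 3 of 20 h; after subtraction of background, 1 of the 3 genes (Anxa3) was shared. For Fgf7 against Ex-4, leaving out 1 array gave 137 to 225 genes, with 137 without Ex-4 replicate 1 and 139 without Fgf7 replicate 1. No gene passed for the change between 5 h and 20 h by limma under any setting run. Differences near 0 changed sign for Fgf7 (0.0013 with the smooth muscle covariate, 0.0049 without Fgf7 replicate 2, and -0.027 to 0.041 with 1 array left out), for Fgfr3 (-0.0024 with the covariate, -0.010 without PBS replicate 1, and -0.019 to 0.034 with 1 array left out) and for Egr1 (-0.039 without Fgf7 replicate 1 to 0.098 without Fgf7 replicate 2). The cause of these shifts was not tested. Signals near the dim level, such as those of Pate4, Etv4 and Fgf7, limit what the arrays can show.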

Other observations

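Id4, an inhibitor of differentiation-promoting transcription factors, stood next to the threshold with Muc2, at a mean signal of 7.52 after Fgf7 and 7.14 after PBS, a log2 difference of 0.38 ± 0.08 without overlap (SE, n = 3 per group, limma adjusted p = 0.0756). Reg4, a secreted lectin of secretory epithelial cells, had means of 8.64 after Fgf7 and 8.04 after PBS with overlapping arrays (0.59 ± 0.22, adjusted p = 0.999). Kit, a receptor of mast cells and some secretory cells, was at -0.42 ± 0.14 at 20 h and at -0.42 at 5 h, without passing at 20 h (adjusted p = 0.999). Robo4, an endothelial receptor, had 7.08, 7.11 and 7.19 on the Fgf7 arrays, against 7.55, 7.82 and 7.68 on the PBS arrays (-0.55 ± 0.20, adjusted p = 0.999), and was at 0.43 at 5 h. Genes of the glucocorticoid list were below 0 for 13 of 16 (median -0.18), against 45.7% of all genes. Of the 16, 1 did not overlap in this direction, against 4.29% of all genes. The list mean overlapped between groups, at -0.30, -0.36 and -0.42 on the Fgf7 arrays and -0.40, 0.08 and -0.20 on the PBS arrays. Per1, also a clock gene, had 8.66, 8.75 and 8.42 after Fgf7, against 8.53, 9.36 and 9.41 after PBS, so PBS replicate 1 stood apart from the other 2 PBS arrays. In the paired fit of the 6 arrays, Robo4 (limma adjusted p = 0.0113), Reg4 (adjusted p = 0.0226) and Kit (adjusted p = 0.0274) passed, and they did so in 3, 2 and 0 of the 3 fits without a pair.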
